A study of Mus musculus with 6 samples.

Results

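Imprinted genes are expressed mainly from the copy inherited from 1 parent, in many cases because DNA methylation set in the egg or sperm marks a control region at the locus. They lie in clusters, in which 1 control region often acts on several neighbours. In the brain many of them act in neuronal development, and several set the growth of the embryo. RNA counts of this kind do not tell the parental copies apart, so they give levels only.

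The set described here holds 35 listed names of mouse imprinted genes out of 24537 gene symbols in the count table. Usp29 was chosen by its fold change and adjusted p between the groups in these same libraries, and the other names were listed with earlier results of these data known. In the table, 34 of the 35 had a row. The remaining name, Zac1, is an older symbol of Plagl1 and stands for the same gene. A filter on low counts was passed by 23 genes and not by 11, and every one of the 34 is accounted for below.

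The libraries came from 6 brain tumors in CD-1 IGS mice, made by in utero electroporation, which drives DNA constructs into the brain cells of an embryo with an electric pulse. All 6 tumors carried a mutant Pdgfra (PdgfraD482V in the titles), a growth factor receptor gene, and DNp53, a dominant-negative p53. The 3 FOXR2-titled libraries also carried FOXR2, a forkhead transcription factor, and the 3 titled Control did not, per the titles. The labels give neither the age of the mice nor the driving promoter. Nor do they say whether each tumor is from its own animal, and p-values therefore reflect spread among these libraries. Xist and Y-linked genes showed both sexes within each title, so each title holds tumors of at least 2 animals. By these genes FOXR2 replicate 2 and Control replicates 2 and 3 were female and the others male, so sex was not balanced between titles. A sheet of sample types deposited beside the counts assigns 6 of 6 libraries to the other group than their titles do. Directions below follow the titles and would all be inverted under the sheet. Where 3 values are given for a title, they are in the order of replicates 1, 2 and 3.

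Depth ran from 13429489 to 17927025 counts per library, where 3 counts, the floor used here, came to 0.174 to 0.219 CPM (counts brought to a common library size with TMM factors). The floor covers counting error only. All 5 listed oligodendrocyte precursor markers, Pdgfra among them, were present. Their sums of 4886 to 7359 CPM in titled FOXR2 and 4397 to 4808 CPM in titled Control did not overlap. The groups of each single marker did overlap. Pdgfra alone held 2483 to 3596 CPM in titled FOXR2 and 2016 to 2504 CPM in titled Control. All tumors carried a mutant Pdgfra, and the labels do not say whether its reads were counted with the gene. The sums are therefore uncertain as a sign of cell type. FOXR2 replicate 2 stood apart in the 10 markers of microglia and macrophages, with a sum of 1041 CPM there against 1.67 to 4.79 in the other 5 libraries. It also held the highest sums of fibroblast and of mature oligodendrocyte markers, at 42.6 and 3578 CPM.

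**Figure D1:**
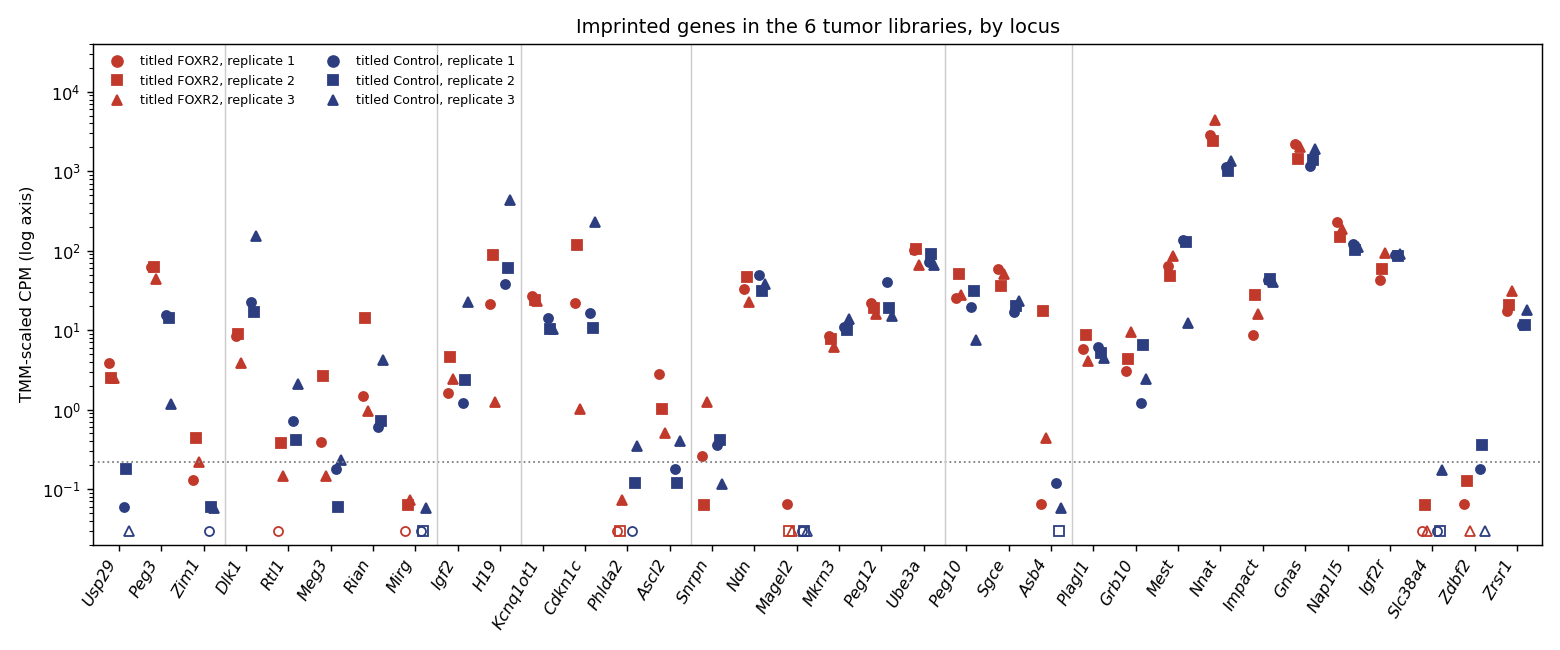
Level of each of the 34 imprinted genes with a row in the table, in TMM-scaled CPM on a log axis, with 1 point per library and vertical lines between loci. Hollow points mark a count of 0 and are drawn at the foot of the axis, and the dotted line marks 3 counts in the shallowest library (0.219 CPM). Nnat and Gnas lie above 1000 CPM in all libraries, while Mirg, Magel2 and Slc38a4 lie below the dotted line in all 6.

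Levels of the 34 genes spread over many orders of magnitude. Per kilobase of exon in the GENCODE M21 annotation, Nnat ranked first with a mean over the 6 libraries of 1204 CPM per kilobase, followed by Gnas with 150, Nap1l5 with 81.2, H19 with 43.6 and Cdkn1c with 32.7. Among the genes that passed the filter, Usp29 was the lowest, at 0.0837 CPM per kilobase. Kcnq1ot1, whose exons cover 93092 bases, stood at 0.196 on the same scale. The authors' gene models are not given in the labels or file headers, so these values rest on other lengths than theirs.

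In the comparison of titled FOXR2 with titled Control, edgeR's quasi-likelihood test put 13 of the 23 genes above 0 and 10 below, and their median log2 fold change was 0.26. Over all 13101 genes tested the median was 0.011 and 50.7% were above 0. At a Benjamini-Hochberg adjusted p under 0.05, taken over all genes, 3 of the 23 were higher (Usp29, Nnat and Sgce), where 0.908% of all genes tested were. In the other direction 0 of the 23 were lower, against a background of 1.38%, while 2 had an unadjusted p under 0.05 and DESeq2 placed 2, Dlk1 and Impact, past its threshold. An unadjusted p under 0.05 was reached by 9 of the 23 beside 24.9% of all genes tested. The groups did not overlap in 9 of the 23, or 39.1%, beside 30.3% of all genes tested. Since the list was made with this contrast known, the counts describe it and support nothing further.

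**Figure D2:**
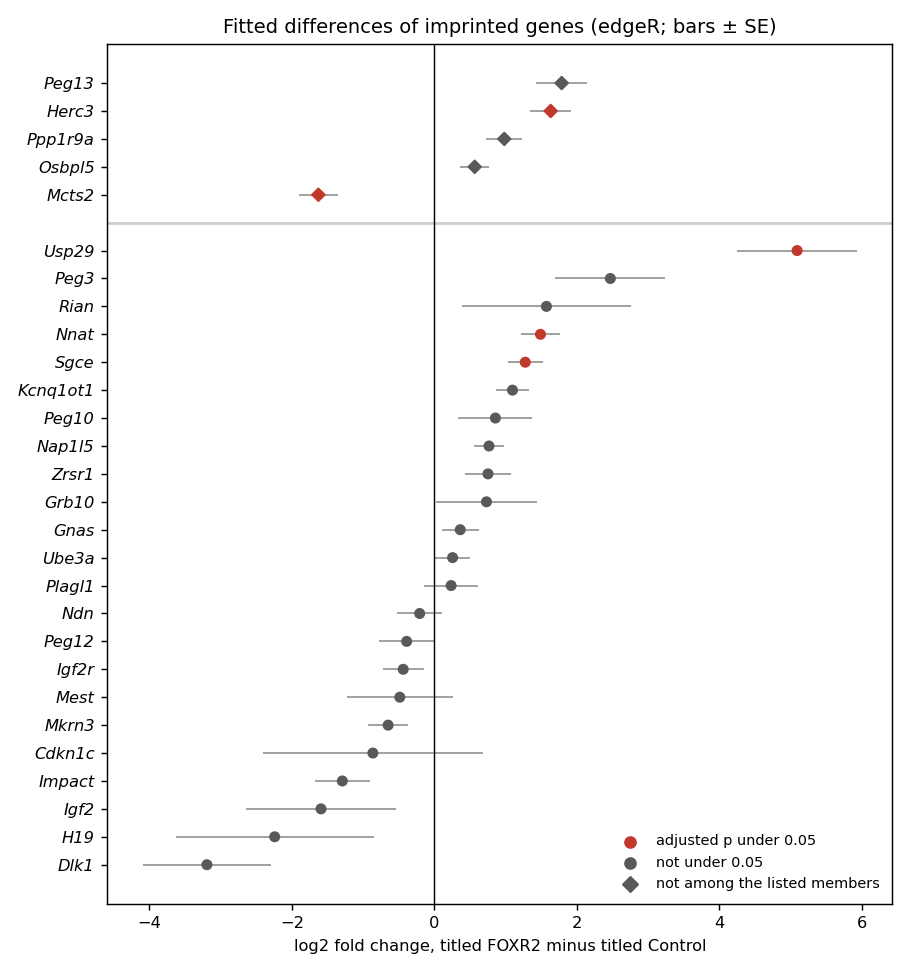
Fitted log2 fold change of the 23 tested members, below the grey line, and of 5 imprinted genes outside the list, above it, as FOXR2-titled libraries minus Control-titled libraries with bars of ± SE. Red marks an edgeR adjusted p under 0.05. Usp29 lies at 5.09 and Dlk1 at -3.19, with the others between.

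At the Peg3-Usp29 locus the groups lay apart for both tested genes, with higher levels in titled FOXR2. Usp29 had the largest log2 fold change of the tested members, but it was chosen by its fold change in these libraries. Peg3 encodes a zinc finger protein and Usp29 a ubiquitin-specific protease, and both are known to be expressed from the paternal copy. They are transcribed away from each other, with 96 bases between the RefSeq genes (GRCm38.p6). That stretch is shown because it lies upstream of both genes and both were at higher levels in every library titled FOXR2. It is given 5′ to 3′ on the strand of Usp29, with CpG dinucleotides, the sites of DNA methylation, in capitals. The stretch lies at chr7:6730463-6730558, plus strand, and holds 3 CpGs.
Peg3-Usp29 gap: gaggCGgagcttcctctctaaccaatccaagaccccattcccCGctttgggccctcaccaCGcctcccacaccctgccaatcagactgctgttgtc

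Usp29 had 59, 40 and 34 counts in the FOXR2-titled trio, or 3.85, 2.52 and 2.48 CPM. The Control-titled trio held 1, 3 and 0 counts, or 0.0599, 0.179 and 0 CPM. All 3 FOXR2-titled libraries were well above the floor and all 3 titled Control were at or under it. The gene thus passed the filter on low counts only through the FOXR2-titled libraries. Summed over libraries, the 133 counts against 4 gave a ratio of 37.5, with an exact (Clopper-Pearson) 95% interval of 14.3 to 140 that covers counting error only. It does not allow for the choice of Usp29 by this same difference. The fitted log2 fold change was 5.09 ± 0.84 (SE; adjusted p = 0.0437 by edgeR, the value that put the gene on the list). Without any 1 of the 6 libraries the adjusted p was 0.0504 to 0.145, with fold changes of 4.54 to 6.31 on the log2 scale. GENCODE places exons of other genes, Zim3 among them, on the opposite strand of 14.3% of the exon bases of Usp29. Zim3 itself was at 0 counts in all libraries.

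Peg3 stood at 62.7, 63.2 and 44.6 CPM in the FOXR2-titled trio and at 15.3, 14.4 and 1.16 CPM in the Control-titled trio. The groups did not overlap, and Control replicate 3 was far below the other Control-titled libraries. The means were 56.8 ± 10.6 and 10.3 ± 7.92 CPM (SD, n = 3 each), with a log2 fold change of 2.47 ± 0.77 (adjusted p = 0.114 by edgeR). Without Control replicate 3 the fold change was 1.94 and the adjusted p 0.0667. Relative to Peg3, Usp29 counts came to 6.13%, 3.98% and 5.56% in the FOXR2-titled libraries and to 0.391%, 1.24% and 0% in the Control-titled ones. These percentages are a description, since Usp29 was chosen by its difference in these libraries, and those of titled Control rest on 1, 3 and 0 counts of Usp29.

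Zim1, a zinc finger gene of the same locus known to be expressed from the maternal copy, had 2, 7 and 3 counts in the FOXR2-titled libraries and 0, 1 and 1 in the Control-titled ones, too few to pass the filter. The ratio of the sums was 6.77, with an exact 95% interval of 1.51 to 62.3 for counting error. Of the other genes of this cluster, Zim2 and Peg3os had a row and were at 0 counts in all 6 libraries, so a level of Peg3os up to the floor was not detectable.

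**Figure D3:**
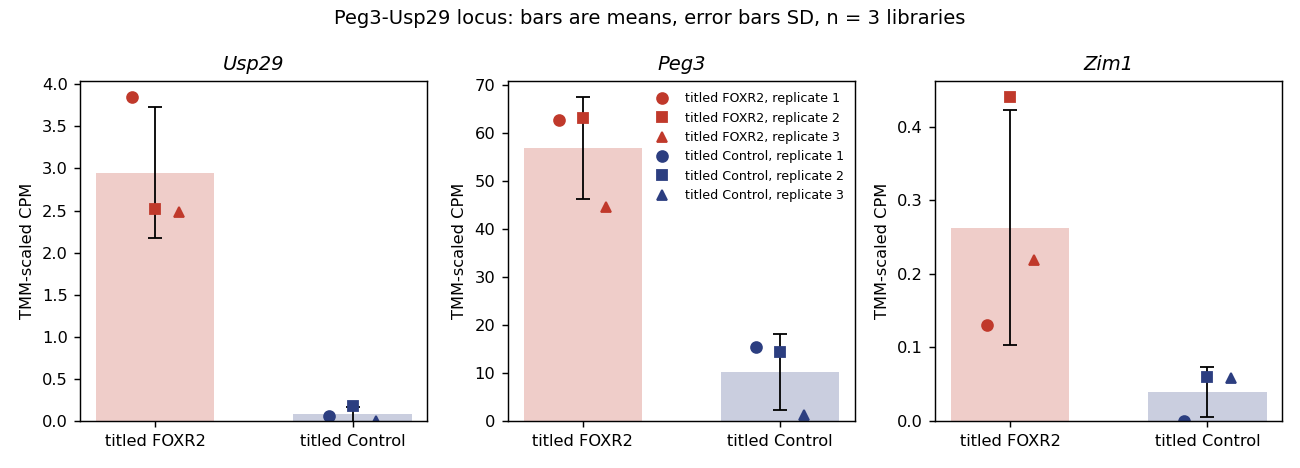
Usp29, Peg3 and Zim1 in TMM-scaled CPM by group, with bars for the mean, error bars for the SD (n = 3 libraries) and 1 point per library. All 3 genes lie higher in each library titled FOXR2 than in any titled Control, and Zim1 stays under 0.5 CPM throughout.

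At the Dlk1-Meg3 locus the groups of both listed protein-coding genes, Dlk1 and Rtl1, lay apart, with higher levels in titled Control, and those of Rian overlapped. Dlk1, a transmembrane protein related to Notch ligands and known to come from the paternal copy, stood at 8.41, 8.81 and 3.86 CPM in the FOXR2-titled trio. In the Control-titled trio it stood at 22.7, 16.9 and 154 CPM. The groups did not overlap, and Control replicate 3 held most of the signal. The log2 fold change was -3.19 ± 0.90 (adjusted p = 0.0945 by edgeR) and stood at -1.49 (adjusted p = 0.135 by edgeR) without Control replicate 3. Rtl1, a retrotransposon-derived gene of the paternal copy, had 0, 6 and 2 counts in the FOXR2-titled libraries and 12, 7 and 36 in the Control-titled ones, and did not pass the filter. Here too the groups did not overlap, and summed counts were higher in titled Control by a ratio of 6.10 (exact 95% interval 2.89 to 14.8, counting error only).

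Rian, a long noncoding RNA known to come from the maternal copy and to host small nucleolar RNAs, stood at 1.50, 14 and 0.948 CPM in the FOXR2-titled libraries. In the Control-titled ones it stood at 0.599, 0.715 and 4.24 CPM. The groups overlapped, and FOXR2 replicate 2 held the highest value. Its log2 fold change of 1.57 ± 1.19 (adjusted p = 0.453 by edgeR) became -0.59 without FOXR2 replicate 2. Meg3, the long noncoding RNA at the start of the same maternal transcription, had 6, 42 and 2 counts in the FOXR2-titled trio and 3, 1 and 4 in the Control-titled trio. Mirg, which hosts microRNAs, had 0 or 1 count in every library. Both Meg3 and Rian were thus highest in FOXR2 replicate 2, the library with 1041 CPM of microglia and macrophage markers and 42.6 CPM of fibroblast markers, whose part in these values was not tested. The ratio of Dlk1 to Rian counts was 5.61, 0.628 and 4.08 in the FOXR2-titled libraries and 37.8, 23.7 and 36.3 in the Control-titled ones, with no overlap.

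Igf2 and H19, which share enhancers, varied more between libraries of 1 title than between the titles. H19, a long noncoding RNA of the maternal copy, stood at 21.1, 89.5 and 1.24 CPM in the FOXR2-titled trio. In the Control-titled trio it reached 38.1, 59.7 and 433 CPM. Igf2, the embryonic growth factor from the paternal copy, stood at 1.63, 4.53 and 2.41 CPM in the FOXR2-titled libraries and at 1.20, 2.38 and 22.4 CPM in the Control-titled ones. Both genes were highest in Control replicate 3, and the groups overlapped for both. The log2 fold changes were -2.24 ± 1.39 for H19 and -1.59 ± 1.05 for Igf2 (adjusted p = 0.36 and 0.392, edgeR). Without Control replicate 3 they were -0.39 and 0.67, so that of Igf2 changed sign. For every 100 counts of H19 there were 3.15 to 7.74 of Igf2 in 5 libraries and 194 in FOXR2 replicate 3, where H19 was lowest. In GENCODE, exons of another gene model on the same strand cover 62.8% of the exon bases of Igf2, which makes its counts uncertain.

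At the Kcnq1ot1 locus neither tested member passed the threshold, and the groups of Kcnq1ot1 lay apart while those of Cdkn1c overlapped. Kcnq1ot1, a long RNA of the paternal copy that is known to silence its neighbours, stood at 27.2, 24.0 and 23.3 CPM in the FOXR2-titled trio and at 14.3, 10.3 and 10.3 CPM in the Control-titled trio. The groups did not overlap and each was tight, with means of 24.8 ± 2.08 and 11.6 ± 2.28 CPM (SD, n = 3 each). The log2 fold change of 1.10 ± 0.24 did not pass the threshold (adjusted p = 0.0587 by edgeR). Kcnq1, in which Kcnq1ot1 lies antisense, stood at 0 to 2.67 CPM and did not pass the filter. Whether counting used the strand is not given in the labels or file headers.

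Cdkn1c, the cyclin-dependent kinase inhibitor p57 expressed from the maternal copy, stood at 21.6, 119 and 1.02 CPM in the FOXR2-titled libraries. In the Control-titled ones it stood at 16.2, 10.7 and 232 CPM. The highest and the lowest library differed by 227-fold, and the groups overlapped. Another gene model on the opposite strand covers 30.7% of the exon bases of Cdkn1c. The log2 fold change of -0.86 ± 1.54 (adjusted p = 0.766 by edgeR) became 1.81 without Control replicate 3 and -2.92 without FOXR2 replicate 2. Ascl2, a basic helix-loop-helix factor of trophoblast, had 43, 16 and 7 counts in the FOXR2-titled trio and 3, 2 and 7 in the Control-titled trio, and did not pass the filter. On the CPM scale its groups did not overlap, with a ratio of summed counts of 6.20 (exact 95% interval 3.32 to 12.6, counting error only). Phlda2, which restrains growth of the placenta, had 1 count in all FOXR2-titled libraries together and 8 in the Control-titled ones.

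Control replicate 3 was the extreme library of several of these genes. It was the highest for Rtl1, which was not tested. Among tested members it was the highest for Igf2, H19, Dlk1, Cdkn1c and Mkrn3 and the lowest for Peg3, Mest, Peg10, Peg12 and Usp29. Over the 23 tested members it was the highest library for 5 (21.7%) and the lowest for 5 (21.7%), beside 18.5% and 18.3% of all genes tested. These shares were near those of all genes. FOXR2 replicates 1 and 2 were also each the highest for 5. FOXR2 replicate 3 was the lowest for 7 (30.4%, beside 19.8% of all genes tested). Mature oligodendrocyte markers summed to 1979 CPM in Control replicate 3 and to 3578, 937, 889, 67.7 and 32.3 CPM in FOXR2 replicate 2, Control replicate 1, FOXR2 replicate 3, Control replicate 2 and FOXR2 replicate 1, and their part was not tested. Markers of pericytes and smooth muscle stood at 0.774 to 1.39 CPM in the Control-titled libraries and at 1.37 to 8.31 in the FOXR2-titled ones. Endothelial markers summed to 3.19 to 4.19 CPM in the Control-titled libraries, and fibroblast markers to 1.74 to 2.56 CPM, with Control replicate 3 within both ranges.

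**Figure D4:**
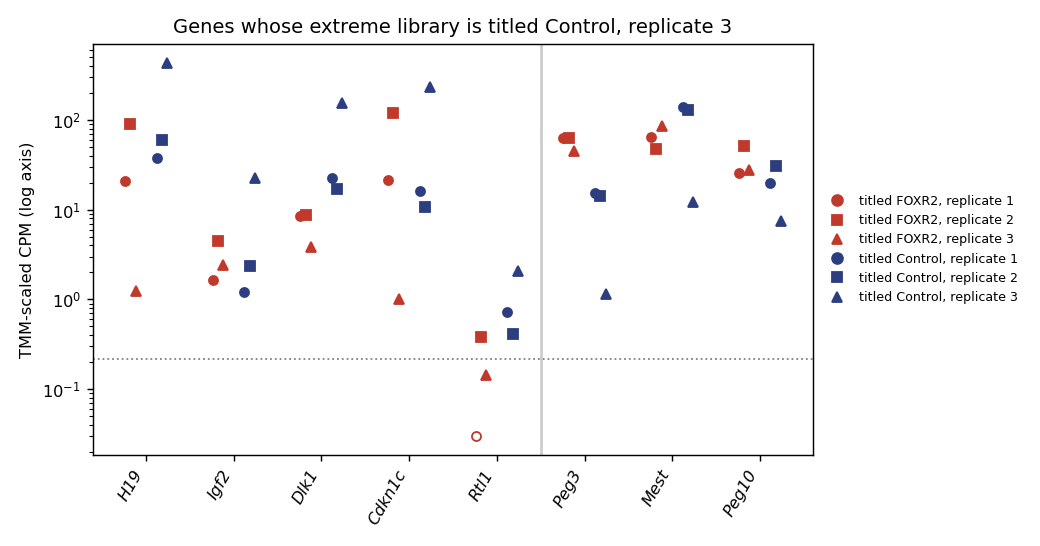
TMM-scaled CPM on a log axis of 8 imprinted genes whose highest library (left of the line) or lowest library (right of the line) is Control replicate 3, with 1 point per library; the hollow point is a count of 0 and the dotted line marks 3 counts in the shallowest library. Control replicate 3 lies at 433 CPM for H19 and at 1.16 CPM for Peg3.

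The spread between libraries of 1 title was wide for part of the set. The SD within groups, pooled over both titles on the scale log2(CPM + 0.5), had a median of 0.44 over the 23 members and of 0.33 over all genes tested. For 8 of the 23 it was above the 90th percentile of all genes tested. These were Cdkn1c (SD 2.81, percentile 99.9), H19 (2.43, percentile 99.8), Rian (1.52), Igf2 (1.47), Mest (1.42), Peg3 (1.32), Dlk1 (1.29) and Grb10 (0.91). At the other end Kcnq1ot1 (0.20), Mkrn3 (0.23) and Nap1l5 (0.23) varied less than the median gene. This measure compares libraries of the same title and does not use the difference between titles. It is still not free of the choice of the list, since the adjusted p that chose Usp29 depends on such spread.

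The genes around Snrpn, the region of the Prader-Willi and Angelman syndromes in man, held no member past the threshold. Ube3a, a ubiquitin ligase expressed from the maternal copy in neurons, had the highest CPM there, while per kilobase of exon it ranked 14 of the 34 members, after Ndn at 7 and Peg12 at 8. It stood at 101, 105 and 65.7 CPM in the FOXR2-titled trio and at 71.1, 91.1 and 66.1 CPM in the Control-titled trio, with overlapping groups. Exons of other genes on the opposite strand, Snhg14 among them, cover 27.3% of the exon bases of Ube3a, so its level and ratios are uncertain. Mkrn3, a makorin ubiquitin ligase of the paternal copy, stood at 8.41, 7.74 and 6.12 CPM in the FOXR2-titled libraries and at 11.0, 10.1 and 14 CPM in the Control-titled ones. The groups of Mkrn3 did not overlap, but its log2 fold change of -0.65 ± 0.28 did not pass (adjusted p = 0.209 by edgeR). Ndn, a growth-restraining protein of neurons, and Peg12, related to the Frat proteins of WNT signalling, had fold changes of -0.21 ± 0.31 and -0.39 ± 0.39 on the log2 scale (adjusted p = 0.721 and 0.571, edgeR).

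Ratios among the 4 abundant genes of this region varied by 2.05-fold to 3.45-fold over the 6 libraries. The ratio of Ndn to Mkrn3 lay between 2.71 and 6.11 in the 6 libraries, that of Ndn to Peg12 between 1.24 and 2.53, and that of Ube3a to Ndn between 1.42 and 3.06. Peg12 to Mkrn3 ran from 1.07 to 3.69 and Ube3a to Peg12 from 1.76 to 5.44. Ube3a to Mkrn3 ran from 10.7 to 13.5 in the FOXR2-titled libraries and from 4.72 to 9.05 in the Control-titled ones, without overlap. At the Kcnq1ot1 locus, Cdkn1c to Kcnq1ot1 ran from 0.0439 to 22.5. Snrpn itself, a splicing protein abundant in brain, had 1 to 17 counts per library. Snurf, which shares its transcript, was at 0 in all 6, and its exons lie wholly within those of Snrpn and another gene model, so the level of Snrpn is uncertain. Magel2 had 1 count in 1 library.

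Peg10 and Sgce also start close together on opposite strands, with 101 bases between the RefSeq genes, and are both known to come from the paternal copy. Sgce, the sarcoglycan gene of myoclonus dystonia, rose in the FOXR2-titled libraries. It stood at 58.4, 35.9 and 51.0 CPM in the FOXR2-titled trio and at 17.0, 19.8 and 23.3 CPM in the Control-titled trio, with no overlap. The log2 fold change was 1.28 ± 0.24 (adjusted p = 0.0489 by edgeR). The call held without FOXR2 replicate 2 and was lost without any 1 of the other 5 libraries, with an adjusted p of 0.0886 to 0.183. Peg10, a retrotransposon-derived gene needed for the placenta, stood at 25.6, 51.4 and 27.6 CPM against 19.7, 30.8 and 7.43 CPM. Its groups overlapped (log2 fold change 0.86 ± 0.52, adjusted p = 0.35 by edgeR). The ratio of Peg10 to Sgce counts was 0.438, 1.43 and 0.541 in the FOXR2-titled libraries and 1.16, 1.55 and 0.319 in the Control-titled ones, so the pair did not keep a fixed ratio. Asb4, a SOCS box gene of the same region from the maternal copy, had 278 counts in FOXR2 replicate 2 and 0 to 6 in the other libraries.

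Nnat rose in the FOXR2-titled libraries and was by far the most abundant member. It encodes neuronatin, a small membrane protein of neurons and endocrine cells. Its level was 2885, 2377 and 4474 CPM in the FOXR2-titled trio and 1132, 1013 and 1330 CPM in the Control-titled trio. The groups did not overlap, with a log2 fold change of 1.49 ± 0.27 (adjusted p = 0.0468 by edgeR). As for Sgce, the call held without FOXR2 replicate 2 and was lost without any 1 of the other 5 libraries, with an adjusted p of 0.076 to 0.183. Summed levels of neuron markers were higher in each FOXR2-titled library than in any Control-titled one. The 5 immature neuron markers summed to 443 to 664 CPM in the FOXR2-titled libraries and to 149 to 214 CPM in the Control-titled ones. The 7 mature neuron markers summed to 117 to 265 against 31.3 to 43.3 CPM, with no marker of either list at 0 in all libraries. Of the immature markers 0 of 5 were called by edgeR (3 had an unadjusted p under 0.05), and the groups lay apart for Dcx and Sox11 only. Of the mature markers Syt1 and Syn1 were called higher, 2 of 6 tested, beside 0.908% of all genes tested. Their groups and those of Snap25 and Rbfox3 lay apart, 4 of 6 tested beside 30.3% of all genes tested. Slc17a7 was at -0.96 ± 0.63 on the log2 scale and the groups of Gad1 and Gad2 overlapped. Syt1 and Syn1 held most of the mature sum in the FOXR2-titled libraries, at 31.6 to 153 and 48.8 to 72.5 CPM. Among 5 astrocyte markers Slc1a2 was called higher (log2 fold change 1.74 ± 0.25, adjusted p = 0.0379 by edgeR) and Aldh1l1 was at -1.71 ± 0.62 (adjusted p = 0.15 by edgeR). Their part in the values of Nnat, Sgce and Usp29 was not tested. In such bulk samples, fewer cells of a type and less RNA per cell cannot be told apart.

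Upstream sequence is shown for Nnat and Kcnq1ot1, the abundant member that rose and the noncoding RNA whose groups were tight and apart. Each run is the 250 bases before the RefSeq start (GRCm38.p6), 5′ to 3′ on the gene's strand, with CpGs in capitals. That of Nnat is chr2:157559828-157560077, plus strand, with 12 CpGs, and that of Kcnq1ot1 is chr7:143296548-143296797, minus strand, with 5 CpGs.
Nnat: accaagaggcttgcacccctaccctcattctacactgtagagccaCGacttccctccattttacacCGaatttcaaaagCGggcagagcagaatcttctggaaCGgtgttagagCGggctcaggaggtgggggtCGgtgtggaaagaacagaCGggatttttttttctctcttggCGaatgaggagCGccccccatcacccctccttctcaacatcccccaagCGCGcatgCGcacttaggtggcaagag
Kcnq1ot1: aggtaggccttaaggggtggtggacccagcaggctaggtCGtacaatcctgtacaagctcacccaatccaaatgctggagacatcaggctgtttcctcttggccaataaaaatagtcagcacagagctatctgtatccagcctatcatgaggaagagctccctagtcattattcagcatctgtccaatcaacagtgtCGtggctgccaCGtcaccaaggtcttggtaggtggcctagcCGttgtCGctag

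RefSeq start windows of 300 bases were matched by symbol for 28 members, 44 windows in all. The median window of the members held 13 CpGs and that of all 32817 windows 7. Both strands were searched for the letters CCGGAAGT (ETS factors), TGTTTAC (forkhead factors) and GCCATNTT (YY1, known to bind the Peg3 control region). The ETS letters were in 1 member window, that of Mkrn3, and in 3.89% of all windows. The forkhead letters were in 3 member windows (Dlk1, Mkrn3 and Nap1l5) and in 3.65% of all windows. The YY1 letters were in 3 member windows (Mkrn3, Slc38a4 and Ube3a) and in 6.04% of all windows. The windows of Usp29, Peg3, Nnat and Kcnq1ot1 held none of these letter strings. A match or its lack describes the letters alone.

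Several members lie inside an intron of another gene. Nap1l5, a nucleosome assembly protein relative of the paternal copy, stood at 229, 149 and 187 CPM in the FOXR2-titled trio. In the Control-titled trio it stood at 120, 102 and 111 CPM, so the groups did not overlap, but the log2 fold change of 0.77 ± 0.21 did not pass (adjusted p = 0.0851 by edgeR). Its host Herc3, a ubiquitin ligase, was higher by 1.63 ± 0.29 (adjusted p = 0.0437 by edgeR). Blcap, the host of Nnat, was at 0.35 ± 0.20 on the log2 scale (adjusted p = 0.331 by edgeR). Zrsr1, a splicing factor relative, had one of 0.75 ± 0.32 (adjusted p = 0.199 by edgeR) and its host Commd1 of -0.14 ± 0.21. Mest, beside Copg2, had one of -0.49 ± 0.74, and Copg2 of 0.0041 ± 0.23. The differences between nested genes and hosts were not themselves tested.

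**Figure D5:**
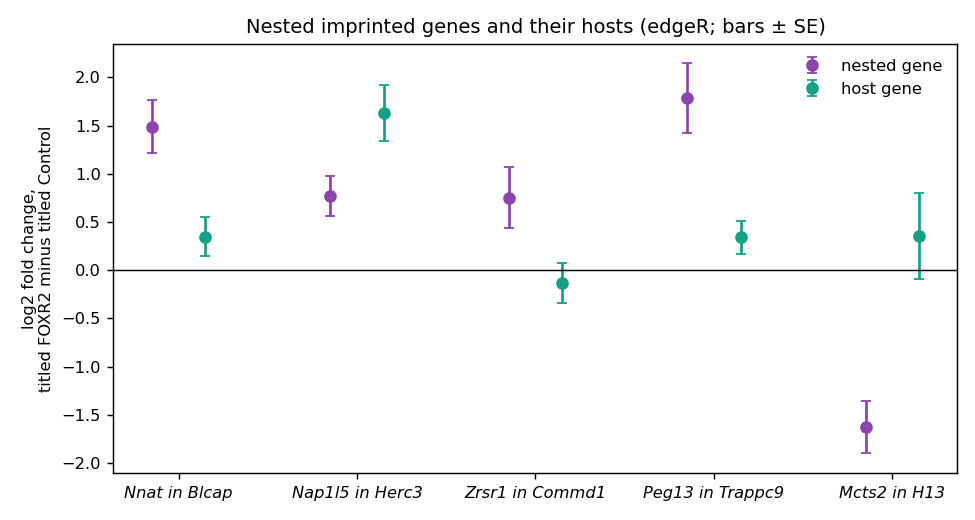
Fitted log2 fold change (titled FOXR2 minus titled Control, bars ± SE) of 5 nested imprinted genes and the genes whose introns hold them. Nnat lies at 1.49 beside 0.35 for Blcap, while Nap1l5 lies at 0.77 beside 1.63 for Herc3.

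Of the remaining single loci, Impact, which restrains the stress kinase GCN2, stood at 8.74, 27.3 and 15.8 CPM in the FOXR2-titled trio. In the Control-titled trio it stood at 43.0, 44.4 and 40.1 CPM. All FOXR2-titled libraries were lower, with a log2 fold change of -1.29 ± 0.39 (adjusted p = 0.108 by edgeR). Mest, a hydrolase of mesoderm, stood at 64.5, 47.7 and 86.0 CPM against 138, 127 and 12.2 CPM. Control replicates 1 and 2 were the highest and Control replicate 3 the lowest, so the groups overlapped. Exons of Copg2 on the opposite strand cover 23.1% of the exon bases of Mest.

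Among genes of growth factor and hormone signalling the groups overlapped. Igf2r, which clears Igf2 to lysosomes, stood at 42.4, 59.0 and 94.2 CPM in the FOXR2-titled trio and at 88.1, 86.1 and 91.0 CPM in the Control-titled trio (log2 fold change -0.44 ± 0.29, adjusted p = 0.392 by edgeR). Grb10, an adaptor that dampens insulin receptor signalling, ranged from 1.20 to 9.48 CPM. Gnas, the stimulatory G protein subunit, ranged from 1151 to 2229 CPM with a log2 fold change of 0.36 ± 0.26, and exons of other genes on the opposite strand, Nespas among them, cover 22.0% of its exon bases. Plagl1, a zinc finger factor that acts on other imprinted genes, stood at 4.08 to 8.68 CPM (log2 fold change 0.23 ± 0.38). Zdbf2 had 0 to 6 counts per library and Slc38a4, an amino acid transporter, 0 to 3.

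Sorted by the copy known to be expressed, 16 of 21 paternally expressed members passed the filter, and 9 were fitted above 0 and 7 below (median log2 fold change 0.49). Of 9 maternally expressed members 3 passed (H19, Rian and Cdkn1c), of which 1 was above 0 and 2 were below. The 9 members that passed the filter and whose groups did not overlap were among the 16 paternally expressed ones (56.25%, beside 30.3% of all genes tested). Paternally expressed genes made up 16 of the 23 members tested, and the list was made with this contrast known. Below the filter, the groups also did not overlap for Rtl1, a paternally expressed gene, and for Zim1 and Ascl2, which are maternally expressed. These rest on few counts. The nearest libraries of the titles FOXR2 and Control had 6 against 7 counts for Rtl1 and 2 against 1 for Zim1. For Ascl2 they had 7 against 7, parted by the scaling alone. The share over all genes was not computed below the filter. Too few maternally expressed genes passed for a comparison. The copy expressed in these tumors was not measured.

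A second list held 49 further imprinted genes and genes of the same clusters that are not members. Of these 47 had a row and 26 passed the filter, 17 of them above 0 and 9 below (median log2 fold change 0.35). edgeR placed 1 higher and 1 lower, beside 2.29% of all genes tested in either direction, and the groups did not overlap in 9 of the 26, or 34.6%, near the 30.3% of all genes tested. The gene called higher was Herc3, at 27.6, 34.2 and 53.1 CPM against 13.7, 11.2 and 12.2 CPM. Mcts2, an intronless copy of a translation factor gene inside H13, was called lower, at 6.32, 11.3 and 9.40 CPM in the FOXR2-titled trio and 26.2, 29.5 and 28.2 CPM in the Control-titled trio (log2 fold change -1.63 ± 0.27, adjusted p = 0.0437 by edgeR). Its parent gene Mcts1, with which reads may be shared, was also called lower (log2 fold change -1.31 ± 0.25, adjusted p = 0.0489 by edgeR) and was named after its values were seen. Without 1 library Herc3 was called in 0 of 6 fits (adjusted p = 0.054 to 0.172) and Mcts2 in 1 of 6, that without FOXR2 replicate 2 (adjusted p = 0.0668 to 0.167 in the other 5).

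Next by p-value among the uncalled came Peg13, Ppp1r9a and Osbpl5. Peg13, a noncoding RNA of the paternal copy inside Trappc9, stood at 111, 94.1 and 199 CPM against 48.5, 42.8 and 26.1 CPM (log2 fold change 1.79 ± 0.36, adjusted p = 0.0516 by edgeR), and all FOXR2-titled libraries were above all titled Control. Trappc9 had a fold change of 0.34 ± 0.17. Ppp1r9a, a synaptic scaffold gene next to Sgce and Peg10, had one of 0.98 ± 0.25 (adjusted p = 0.0795 by edgeR), and Osbpl5 of 0.57 ± 0.20 (adjusted p = 0.147 by edgeR). H13 and Trappc9 were chosen as hosts after their values were seen.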

How the data were processed

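Poly(A)-selected RNA of 6 mouse brain tumors was sequenced as single reads from directional libraries, per the labels' protocols. The authors deposited them as raw read counts per gene symbol, in whole numbers. The submitters' processing notes name TopHat, DESeq2 and the human build hg19, with no tool version. What counted the reads, on which annotation and whether by strand is not given in the sources used here, so overlapping, antisense and nested genes are uncertain. The deposited sample sheet names a group per library in words and was used only to count disagreements with the titles.

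The model was edgeR 4.0.16 in R 4.3.3 (filterByExpr with a count minimum of 10, TMM factors of 0.961 to 1.03, prior count 0.125, quasi-likelihood F test with no covariate). A call required an adjusted p (Benjamini-Hochberg over all 13101 genes tested) under 0.05. Fold changes are titled FOXR2 minus titled Control, and ± after them is the standard error. On simulated counts for this comparison, run on 12946 genes, 54 of 100 4-fold and 2 of 100 2-fold changes were recovered, so uncalled small differences say little.

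The members and lists were chosen with earlier results of these data known. Values in every library are given for members called, for the most abundant and the most changed member of each locus, and for members without overlap and at least 1 CPM. Of the other lists, called genes or the 3 smallest p-values are named. Intervals for ratios of summed counts were computed only for Usp29, Zim1, Rtl1 and Ascl2, whose groups all lay apart. They describe counting error and test nothing. Alternatives used DESeq2 1.42.0, limma 3.58.1 (voom), RLE factors, total-count scaling, no filter, the replicate number as a block, animal sex (from Xist and Y-linked genes) and each library left out. Leaving out FOXR2 replicate 2 and Control replicate 3 together was added after seeing the data. Exon lengths came from GENCODE M21 and sequences from RefSeq.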

Additional observations from a re-analysis of the deposited data

How the results depend on the processing

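Calls over all genes depended on the fit, and the members' calls with them. edgeR called 119 genes higher and 181 lower, DESeq2 942 and 938, animal sex as a covariate 7 and 0, the replicate block 0 and 0, and the fit without FOXR2 replicate 2 and Control replicate 3 together 54 and 16. Total-count scaling gave 119 lower. Without 1 library the counts were 1 to 123 higher and 0 to 82 lower. The replicate block, with 0 calls in both directions, had 2652 genes at an unadjusted p under 0.05, and the edgeR fits with 0 lower calls had 2241 to 2954. Of the members 3 were called higher and 0 lower. DESeq2 called 6 and 2, no filter 1 higher, and the replicate block, animal sex and the fit without both libraries 0 higher, while leaving out 1 library gave 0 to 2. Of the other imprinted genes 1 was called higher and 1 lower. DESeq2 called 4 higher, limma-voom 0 higher, and the replicate block and animal sex 0 either way. The fit without both libraries called 0 lower, and leaving out 1 library gave 0 to 1 each. DESeq2 called 1 imprinting regulator higher.

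Single genes changed sign mostly without 1 library. The log2 fold changes then ranged from -2.11 to 0.67 for Igf2, -0.59 to 3.05 for Rian, -0.094 to 0.46 for Plagl1, -2.92 to 1.81 for Cdkn1c, -0.51 to 0.020 for Ndn, -0.65 to 0.15 for Peg12, -0.27 to 0.012 for Commd1, -0.13 to 0.17 for Copg2 and -0.36 to 0.64 for H13. Without both libraries those of Igf2 and Plagl1 were 0.17 and -0.20. Mest was at 0.10 by limma-voom. Copg2 was at -0.0092 with no filter, -0.010 by limma-voom, -0.0078 with the replicate block and -0.038 with animal sex. The cause was not tested. In all, 18 of 518 fits of single genes reversed a sign. Same-numbered deviations from the group means correlated at -0.016, -0.24 and -0.010, and differently numbered ones at -0.20 to 0.25. The labels do not say whether the number pairs the libraries, and these correlations cannot settle it. Mirg, Magel2 and Slc38a4 had at most 3 counts in any library, so that a difference was not detectable at this depth.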

Other observations

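Factors that set, read or keep methylation at imprinted regions gave no call by edgeR. Of 22 listed regulators 19 passed the filter, with 13 fitted above 0, 6 below and their median log2 fold change was 0.12. The count called by edgeR was 0, while 3 of the 19, or 15.8%, had an unadjusted p under 0.05, below the 24.9% of all genes tested, and DESeq2 called 1, Dnmt3a. Dnmt3a, a methyltransferase that sets new methylation, stood at 103, 81.8 and 132 CPM in the FOXR2-titled trio and at 62.9, 59.6 and 69.2 CPM in the Control-titled trio (log2 fold change 0.72 ± 0.21, adjusted p = 0.105 by edgeR), with no overlap. Atrx, a chromatin remodeller, was at 0.78 ± 0.25 on the log2 scale (adjusted p = 0.119 by edgeR) and Arid4a of 0.59 ± 0.22 (adjusted p = 0.161 by edgeR). Zfp57, a zinc finger protein that keeps imprints, ranged from 1.32 to 5.98 CPM with overlapping groups, and Dppa3 was at 0 counts in all libraries. Zfp57 and Dppa3 were named after their values were seen.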
